A study of Homo sapiens with 3 samples.

Results

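Almost fully uridylated mRNA windows were stretches of 50 nt in protein-coding genes in which at least 80% of the unique reads bound by DIS3L2 ended in untemplated uridines. They were chosen by that measured fraction, so the fraction itself is given here as a description. Of 1136 mRNA windows in 1029 genes, 931 were the only mRNA window of their gene. Windows of histone genes, of zinc finger genes named by symbol and of OAT, RPL12 and RPS12 were left out, which kept 874 windows with 1 window per gene. Of these, 237 windows reached 80% and 637 did not. The whole table held 1533 windows of all RNA classes.

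CLIP-seq, in which RNAs are crosslinked to a protein and recovered with it by immunoprecipitation, had been performed in HEK293 cells that overexpressed the D391N mutant of DIS3L2. HEK293 is a human embryonic kidney line, as the labels name the cells, and the study's methods give the line as HEK293T-Rex. The 3 replicate libraries formed 1 group with the same cells and the same mutant, and there was no control group. The deposited counts were sums over these libraries, so no value below has a replicate SD, and the spread between libraries is unknown. Intervals are 95% Wilson intervals of the fraction of uridylated reads, they cover counting error only, and reads copied by PCR from the same molecule are not independent.

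DIS3L2 is a cytoplasmic 3′ to 5′ exoribonuclease that prefers RNAs with an untemplated oligouridine tail, and substitution of an aspartate in its active site leaves it able to bind RNA but not to degrade it. The tails are added by terminal uridylyltransferases, of which TUT4 and TUT7 act on let-7 precursors. The first exons of protein-coding genes in CpG islands, where short RNAs from paused or early terminated transcription also arise, are GC-rich. Below, a tail means at least 4 untemplated 3′ uridines, the cutoff of the study's methods, and a read that carries one is called uridylated or U+. A read counted as without a tail can still end in fewer untemplated uridines.

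The windows with the most U+ reads lay at or shortly past start sites in GC-rich sequence. The 6 with the most U+ reads among those that lie within 150 nt of the listed start and do not run past the end of exon 1 are shown for their composition, as 30 nt from the middle of the window, read from GRCh37 on the strand of the gene, with runs of at least 3 G in capitals. The stretches are chr12:6875560-6875589 (+) for PTMS, chr16:67562710-67562739 (+) for FAM65A, chr1:36235510-36235539 (-) for CLSPN, chr19:34112860-34112889 (+) for CHST8, chr21:28217660-28217689 (-) for ADAMTS1 and chr10:72575710-72575739 (+) for SGPL1.
PTMS: GGGGGcggcgagcccGGGatcgagctaccg
FAM65A: GGGaGGGGccggcgcctgcggcggcgacag
CLSPN: cgctgctctccggctgaGGGaatcagagac
CHST8: cttcgctGGGagccttcccggcgcgcaagc
ADAMTS1: aaagccaGGGtgcgctaccggacggagagg
SGPL1: GGGaGGGGcgaggccggcggctgccGGGcc

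The next 4 sequences cross the end of exon 1 of the listed transcript, and they are shown because exon and intron lie side by side in the counted stretch. Exon bases are in lower case and intron bases in capitals, and the stretches are chr17:41910454-41910483 (-) for MPP3, chr10:120355013-120355042 (-) for PRLHR, chr12:6716451-6716480 (-) for CHD4 and chr1:225997857-225997886 (+) for EPHX1. Each intron begins with GT.
MPP3: tcccggcgcgacgagGTAGGAGGCCGCGAG
PRLHR: aaaccccactcccagGTAGGATCGCGCTCC
CHD4: tgcggcggctccgggGTGAGGAGAGCGCGG
EPHX1: ctgcgagccgagaccGTAAGCGCCCGGGGC

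The next 5 hold the start of a later exon, in capitals, behind intron bases in lower case. The stretches are chr20:32247350-32247379 (-) for NECAB3, chr15:75134520-75134549 (-) for ULK3, chr2:74708000-74708029 (-) for CCDC142, chr22:50686200-50686229 (-) for HDAC10 and chr17:33318962-33318991 (+) for LIG3. Each intron ends with ag.
NECAB3: gcccacactctgtgccctcacagGCCCCCC
ULK3: cctctaaacacagTGGGACAGTGACAATAT
CCDC142: ctccctgtttccacccaaagCCTCTGTTGC
HDAC10: gtccctctggtctgtccaccacagGCCACA
LIG3: gcttcatccccctagGTGTACAGCCAATGA

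The last 3 come from windows without a splice acceptor that lay farther than 150 nt from every annotated start of their gene. They are 3 of the 4 such windows with the highest lower bounds of the U+ fraction, the other being CYP7B1, and runs of at least 3 G are in capitals. The stretches are chr4:39448710-39448739 (+) for KLB, chr16:29913010-29913039 (+) for ASPHD1 and chr19:17434010-17434039 (-) for ANO8.
KLB: atacattgcctccaagcaccgacGGGGGct
ASPHD1: ggctggtccccacctctggcccccGGGtgc
ANO8: caacagtgcccgaggtcagagcagtggaaa

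Of 15316 unique reads in the 237 windows together, 13306 carried a tail, which is a pooled U+ fraction of 86.9% (86.3 to 87.4%). The 637 windows below the threshold held 79752 unique reads with a pooled fraction of 56.2%. The selected windows thus carried 7.76% of the unique reads and 12.3% of the U+ reads of all mRNA windows. Among them the median fraction was 86.4%, 80 windows were at 90% or more, and 45 were at 95% or more. A share of 27.1% of the 874 windows reached 80%, against 26.1% of all 1533 windows in the table.

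The selected windows were shallow. Their unique reads ranged from 19 to 483 with a median of 41, and the middle of the range ran from 27 to 78 (quartiles). The other windows had a median of 64 and reached 3306. A total of 77 selected windows held under 30 unique reads and 46 held at least 100. The interval of a single selected window spanned between 3.72 and 33.5 percentage points, with a median of 19.5.

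At 20 unique reads, 16 U+ reads gave exactly 80% with an interval of 58.4 to 91.9%, and at 100 unique reads the same fraction had an interval of 71.1 to 86.7%. Counting error alone can carry a shallow window across the threshold in either direction. The lower bound was itself at least 80% for 64 of the 237 windows, which is 7.32% of the 874. It was at least 70% for 175 of them and at least 60% for 232. Of the windows below the threshold, 238 of 637 had an interval that reached 80%.

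The share of windows at 80% or more was highest among the shallowest windows and lowest among the deepest. It was 49.7% (77 of 155, 41.9 to 57.5%) below 30 unique reads and 31.4% (72 of 229, 25.8 to 37.7%) from 30 to 49. It was 18.2% (42 of 231, 13.7 to 23.7%) from 50 to 99, 21.3% (34 of 160, 15.6 to 28.2%) from 100 to 199 and 12.1% (12 of 99, 7.07 to 20%) from 200 upwards. The median fraction of all windows in these bins fell from 78.6% to 56.8%, and across the 874 windows Spearman's rank correlation between unique reads and the U+ fraction was -0.39, where both measures share the unique reads. With a uniform prior, a 0.95 probability that the frequency exceeds 0.25 needs 9 of 20 pooled reads (45%) or 33 of 100 (33.0%). The methods instead compute the probability for each library and multiply it over the libraries, which pooled counts do not allow. Of the 874 windows 12 did not reach 0.95 on the pooled counts, and none of these was a selected window.

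**Figure D1:**
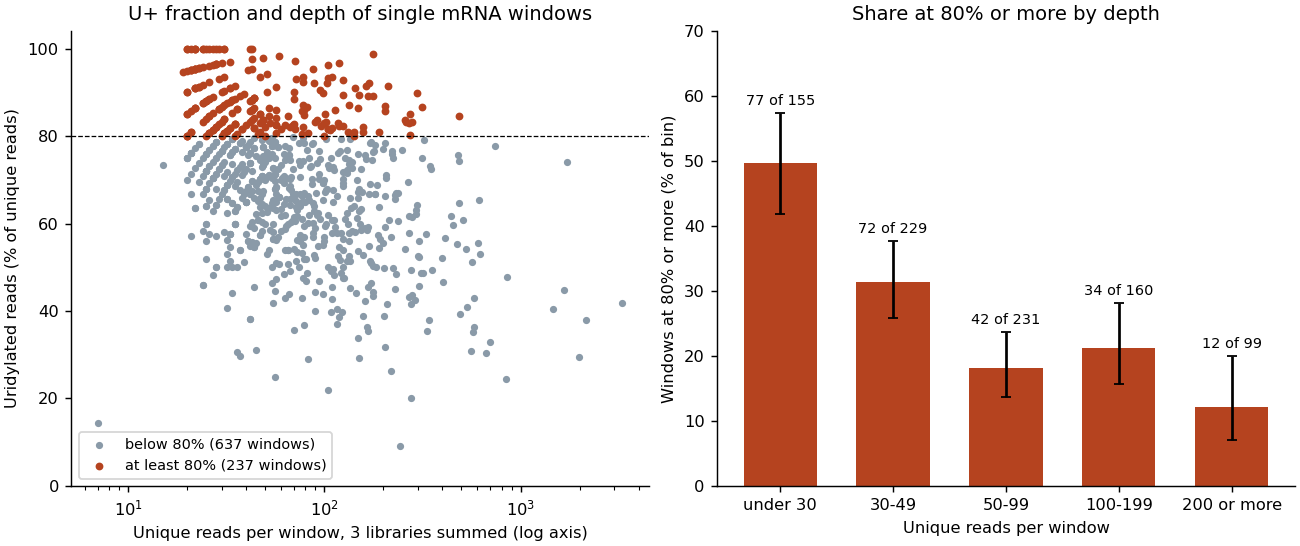
Left, the U+ fraction (percent of unique reads) of each of the 874 windows against its unique reads on a log axis, with windows at 80% or more in red. Right, the share of windows at 80% or more in 5 bins of unique reads, with 95% Wilson intervals, which is 49.7% below 30 reads and 12.1% from 200 reads upwards.

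Just inside the threshold were 8 windows at exactly 80%, among them ATP13A2 and GDF11, each with 16 of 20 reads. The 3 just outside were PXN with 55 of 69 (79.7%), GAMT with 43 of 54 (79.6%) and MLST8 with 43 of 54 (79.6%). The intervals on both sides overlap over most of their length. A total of 44 selected windows were under 82%, and 38 others were at 78% or more.

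PTMS, which encodes parathymosin, a small acidic protein, had the most U+ reads, with 409 of 483 unique reads uridylated (84.7%, 81.2 to 87.6%). Its window, chr12:6875550-6875599 on the plus strand, lay in the 5′ UTR in exon 1. FAM65A, now RIPOR1, had 271 of 313 (86.6%, 82.4 to 89.9%). CLSPN, claspin, the adaptor of the replication checkpoint, had 266 of 296 (89.9%, 85.9 to 92.8%). The midpoints of the FAM65A and CLSPN windows were each 5 nt past the annotated start. The interval of CLSPN lies above that of SGPL1, given next, and overlaps those of PTMS and FAM65A.

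MPP3, a membrane-associated scaffold protein, had 233 of 274 reads uridylated (85%). CHST8, a sulfotransferase that acts on the sugar chains of hormones, had 233 of 280 (83.2%). ADAMTS1, a secreted metalloprotease, had 224 of 270 (83.0%). The windows of SGPL1, the lyase of sphingosine 1-phosphate, with 220 of 274 (80.3%, 75.2 to 84.6%), and of URI1, a prefoldin-like protein, with 218 of 262 (83.2%), lay in the 5′ UTR. NINJ1, a membrane protein that acts in plasma membrane rupture, had 215 of 257 (83.7%) at the start of its coding sequence. LY6E, a lipid-anchored surface protein, had 194 of 212 (91.5%, 87.0 to 94.6%). All 10 of these windows lay within 150 nt of a start, and for 5 of them, CHST8, ADAMTS1, SGPL1, URI1 and NINJ1, the interval held 80%.

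The 10 windows with the highest lower bounds were other windows, and 6 of them, KLB, ASPHD1, RAPSN, CYP7B1, LIG3 and ANO8, were farther than 150 nt from any annotated start. KLB, β-klotho, the co-receptor of endocrine FGFs such as FGF21, stood highest with 175 of 177 reads uridylated (98.9%, 96.0 to 99.7%). Only 2 of its reads lacked a tail. Its window, chr4:39448700-39448749 on the plus strand, lay in the coding sequence of exon 4, 40175 nt past the start. TMEM213, a transmembrane protein, had 43 of 43 reads uridylated (91.8 to 100%), with the window midpoint 14 nt before the start.

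ASPHD1 had 115 of 119 (96.6%, 91.7 to 98.7%) in the coding sequence of a long exon 1. RAPSN, rapsyn, which clusters acetylcholine receptors at the neuromuscular junction, had 42 of 42 (91.6 to 100%) in exon 5. CYP7B1, an oxysterol hydroxylase, had 58 of 59 (98.3%, 91.0 to 99.7%). IRS2, an adaptor of the insulin receptor, had 101 of 105 (96.2%, 90.6 to 98.5%) in the 5′ UTR. LIG3, a DNA ligase of nuclear and mitochondrial repair, had 69 of 71 (97.2%, 90.3 to 99.2%) at the end of intron 6. PDHX, a subunit of the pyruvate dehydrogenase complex, had 48 of 49 (98.0%, 89.3 to 99.6%), and TRIM8, a ubiquitin ligase, and ANO8, an anoctamin, each had 31 of 31 (89.0 to 100%).

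**Figure D2:**
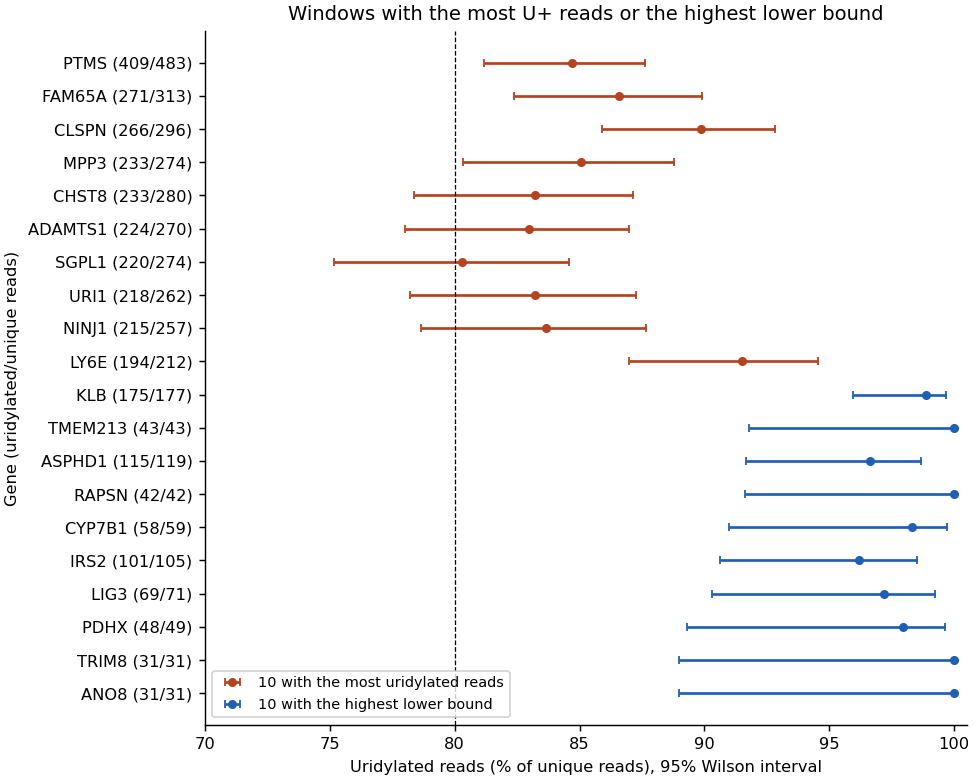
U+ fraction (percent of unique reads) with 95% Wilson intervals for the 10 windows with the most U+ reads (red) and the 10 with the highest lower bound (blue), with U+ and unique reads after each gene. The 5 windows from CHST8 and ADAMTS1 to NINJ1 have intervals that hold 80%, and KLB lies highest with both many reads and a fraction of 98.9%.

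Every read was uridylated in 17 windows, and 22 more had a single read without a tail. None of the 17 reached 50 unique reads. Below TMEM213, RAPSN, TRIM8 and ANO8 came PPP1CA, a catalytic subunit of protein phosphatase 1, with 29 of 29, UFL1, the ligase of the ubiquitin-like UFM1, with 28 of 28, and HDGFRP3 with 27 of 27. DR1, a repressor of general transcription, and CDC42EP4, an effector of the GTPase CDC42, were the shallowest of these at 20 of 20 (83.9 to 100%). The shallowest selected windows overall were CLUH, an RNA-binding protein for nuclear transcripts of mitochondrial proteins, with 18 of 19 (75.4 to 99.1%), below the minimum of 20 reads that the methods state, and SLC25A33, a mitochondrial nucleotide carrier, with 18 of 20 (69.9 to 97.2%).

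The selected windows lay mainly at annotated starts. In 198 windows (83.5%) the midpoint was within 150 nt of the start of the transcript used, against 518 (81.3%) of the windows below 80%. With distances taken to whichever transcript of the gene starts closest, the shares were 90.3% and 88.5%. The median distance from the transcript used was 48 nt past the start for selected windows and 53.5 nt for the others. The start itself fell inside 60 selected windows (25.3%) and 131 others (20.6%), so the position of the 237 windows at the start was close to that of the rest.

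**Figure D3:**
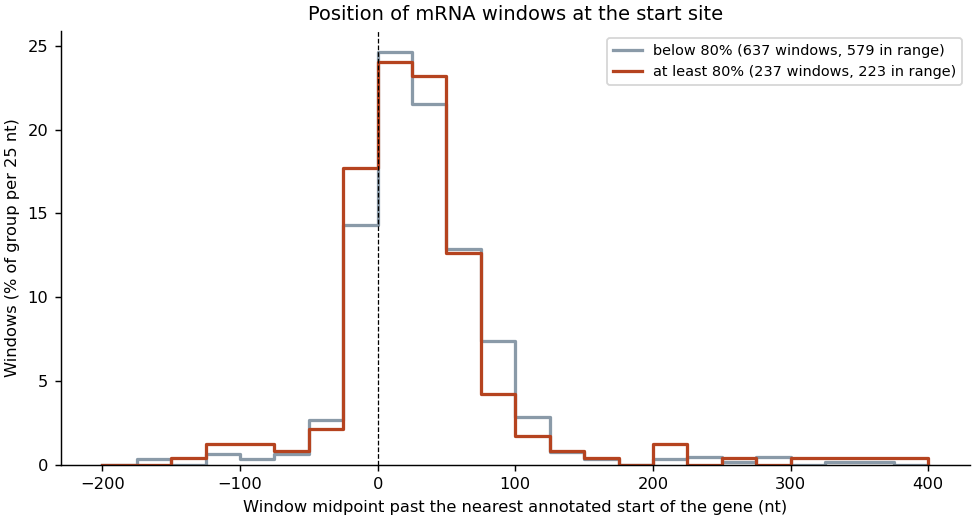
Share of windows (percent of each group per 25 nt) by the distance of the window midpoint past the nearest annotated start of the gene (nt), for windows at 80% or more (red) and below 80% (grey). Both groups peak just past the start, and 223 of the 237 windows at 80% or more are within the range shown.

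By annotation, 147 of the selected windows had their midpoint in a 5′ UTR, 146 of them in exon 1. Another 35 lay upstream of the listed start, 34 in coding sequence, 15 in introns, 3 in exons of non-coding transcripts, 2 in 3′ UTRs and 1 downstream of the gene. The share that reached 80% was 25.5% of 576 windows in 5′ UTRs, 31.8% of 110 upstream, 33.3% of 102 in coding sequence and 39.5% of 38 in introns. It was 6.45% of 31 windows in 3′ UTRs, where the pair of selected windows were those of NFKBID, an atypical IκB protein, with 150 of 164 reads uridylated, and MTSS1L, now MTSS2, with 27 of 33.

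CHST8 and LY6E were the upstream windows with the most U+ reads, with midpoints 15 and 21 nt before the start, followed by CDS2, a CDP-diacylglycerol synthase, with 102 of 124. In introns, ISYNA1, inositol 3-phosphate synthase, had 178 of 205 (86.8%) 69 nt past the start, NECAB3 had 155 of 168 (92.3%, 87.2 to 95.4%) and CCDC142 had 115 of 124 (92.7%, 86.8 to 96.1%). These classes follow the transcript used. The midpoint of the NECAB3 window lay 21 nt before the start of another transcript of the gene, and that of ISYNA1 lay 47 nt past another start. LAMA5, a laminin chain, had 52 of 57 in an exon of a non-coding transcript.

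A set of 23 selected windows lay farther than 150 nt from every annotated start of their gene, which was 24.2% of the 95 such windows, against 27.5% of the 778 windows near a start. Within the selected windows, which the fraction itself chose, the far ones had a median of 92.7% against 86.2% for the 214 near ones. Their median depths were 42 and 40.5 unique reads. Over all windows, selected or not, the medians were close, at 70.8% for the 95 far and 71.1% for the 778 near ones. A fraction of 95% or more was seen in 11 of all 95 far windows and 34 of all 778 near ones. Within the selected windows these were 11 of 23 and 34 of 214, where the fraction itself set the denominators. Their GC content was lower, with a median of 64% against 78%.

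Of these 23, KLB, NFKBID, ULK3, ASPHD1, CCDC142, CLEC11A and HDAC10 had more than 100 unique reads. ULK3, a kinase related to the autophagy kinase ULK1, had 149 of 167 (89.2%, 83.6 to 93.1%) at the start of exon 3. CLEC11A, a secreted growth factor of bone and blood cells, had 114 of 141 (80.9%, 73.6 to 86.5%) 1595 nt past the start. HDAC10, a deacetylase of polyamines, had 95 of 103 (92.2%, 85.4 to 96.0%). ARL9, an ARF-like GTPase, had 84 of 88 (95.5%, 88.9 to 98.2%). FRMD4A, a scaffold of epithelial polarity, had 22 of 22 in exon 18.

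Exon borders lay inside some windows. In 12 selected windows (5.06%) the window ran past the end of exon 1 of the transcript used, against 28 others (4.40%). These were MPP3, PRLHR, EPHX1, CHD4, MDP1, CCDC127, HDDC3, SUV39H2, TMEM180, TSNARE1, GRN and GLI4. MPP3 was the deepest, and 11 of the 12 held under 50 unique reads. PRLHR, the receptor of prolactin-releasing peptide, had 44 of 47 (93.6%, 82.8 to 97.8%), and CHD4, a nucleosome remodeller, and EPHX1, the microsomal epoxide hydrolase, each had 41 of 49 (83.7%, 71.0 to 91.5%). The counts do not say where in the window a read lies, so reads across the border cannot be told from reads that stop before it.

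The start of a later exon fell inside 13 selected windows (5.49%), against 30 others (4.71%). The splice acceptors printed above for NECAB3 (exon 9), ULK3 (exon 3), CCDC142 (exon 5), HDAC10 (exon 13) and LIG3 (exon 7) belong to these windows, which also include RHOT2, RAPSN, DDX41, FBF1, C9orf3, CLUH, BRIP1 and ATP13A2. Windows with an acceptor made up 7 of the 23 selected windows far from a start and 6 of the 214 near one. Among the windows below 80%, the counts were 18 of 72 far and 12 of 564 near. Acceptors were therefore seen mainly away from starts, in 30.4% of the far windows at 80% or more and 25% of those below.

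The selected windows were somewhat richer in G than the rest. Their median GC content was 78% against 74.0%, the median G content was 40% against 36%, the median C content was 36% in both, and the median T content was 12% against 16%. They held a median of 2 runs of at least 3 G, against 1. The minimum free energy of the window predicted by RNAfold had a median of -20.60 kcal/mol, against -18.70 kcal/mol for the others. The order held on both sides of 50 unique reads, where median GC was 76.0% against 74.0% below and 78% against 72.0% above. These are descriptions of windows chosen by their fraction, and the ranges overlapped widely, from 42 to 92% GC in selected windows and from 16 to 94% in the others.

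**Figure D4:**
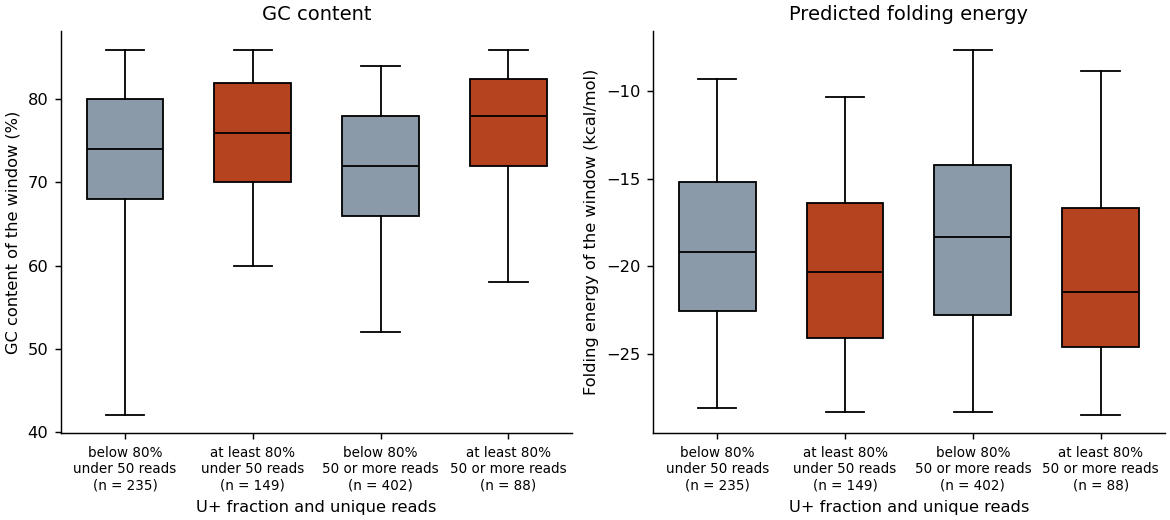
GC content (percent) and predicted folding energy (kcal/mol) of the 50 nt windows below 80% (grey) and at 80% or more (red), split at 50 unique reads, with boxes from the lower to the upper quartile, a line at the median and whiskers from the 5th to the 95th percentile. The medians of the red boxes are higher for GC and lower for energy on both sides of the split, and the boxes overlap.

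A pattern of 4 runs of at least 3 G with 1 to 7 nt between them, the letter pattern of a G-quadruplex, was present on the RNA strand in 7 selected windows (2.95%) and 4 others (0.628%). These were CGRRF1 with 135 of 151 reads uridylated, BTBD6 with 129 of 157, CLK2, MDP1, POLDIP2, TBC1D20 and CTXN1. A match is a description of the letters and no evidence of a structure. No run of GGG was present in 41 selected windows (17.3%) and 190 others (29.8%).

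A run of at least 4 encoded T, which bears on whether a 3′ T is untemplated, was found inside the window or within the next 50 nt for 10 selected windows (4.22%) and in 65 others (10.2%). The 10 were NFKBID, ULK3, KLF5, TOR1AIP2, TIAL1, MDP1, CCDC127, JAKMIP1, C1orf52 and BRIP1. The other 227 selected windows, with KLB, CLSPN and PTMS among them, had no such run. Near-identical copies elsewhere in the genome were found for 2 selected windows, those of GPR89B (24 of 27) and UBE2S (89 of 99), whose reads are uncertain in origin, and for 12 others. A further coding gene on the same strand overlapped 9 selected windows (3.8%) and 25 others (3.9%), so the listed gene may share its reads. The 9 were RBM14-RBM4, CHD4, MDP1, PLD6, KAT2A, RAB4B, PDXP, JAKMIP1 and GLI4. Of these, RBM14-RBM4, CHD4, KAT2A and RAB4B are counted in the gene groups below.

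Neighbouring windows were sought only on the opposite strand within 1000 nt and, in another RNA class, within the same gene. The first kind was found for 2 selected windows (0.844%) and 10 others (1.57%). The second was found for 1 (0.422%) and 5 (0.785%). RELL2 (19 of 22) lay 200 nt from a window of HDAC3 on the opposite strand (26 of 40), and JUND (20 of 21) lay 750 nt from a window of hsa-mir-3188 (33 of 53). ULK3 had another window, listed as long non-coding RNA, with 25 of 27 reads uridylated. A coding gene on the opposite strand started within 1000 nt before or past the start of 19 selected genes (8.02%) and of 76 others (11.9%).

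The genes belonged to many pathways. Of 15 groups of gene symbols, 56 selected windows fell into at least 1, and most groups held a share of selected windows near or below the 27.1% of all 874. Membrane traffic and small GTPases had the highest share, 8 of 16 (50%, 28.0 to 72.0%), with the windows of ARL9, RHOT2, a GTPase of the outer mitochondrial membrane, ARF5, a GTPase of Golgi traffic (37 of 44), RAB12 (36 of 42), TRAPPC10, RAB11B, RAB4B and CDC42EP4. The median depth of this group was 40 unique reads, against 56 for all 874 windows, and 6 of its 8 selected windows held under 50. The lower bound of 28.0% was only just above the 27.1% of all windows. Among the 8, CDC42EP4 is an effector and no GTPase, and its symbol placed it in this group and in that of the cell cycle.

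Chromatin regulators had 5 of 18 (27.8%), with HDAC10, CHD4, the histone acetyltransferase KAT2A (49 of 57) and KAT2B, the paralogue of KAT2A (39 of 41). Ubiquitin and proteasome genes had 6 of 29 (20.7%), with UBE2S, the chain-elongating enzyme of the anaphase-promoting complex, TRIM8, and FBXO17 and UBE2G2, each with 31 of 36. RNA splicing, processing and helicases had 4 of 24 (16.7%), with RBM15B, an adaptor of RNA methylation (98 of 114), DDX41 (38 of 43), HNRNPA0 (24 of 24) and RBM14-RBM4 (21 of 23). Kinases and phosphatases had 4 of 26 (15.4%), with CLK2, which phosphorylates splicing factors (85 of 104), PTPN18, PPP1CA and PPP4R4.

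Sequence-specific transcription factors had 4 of 18 (22.2%), namely KLF5 (90 of 110), HOXD1 (37 of 42), NFIC (21 of 23) and JUND. Solute carriers and transmembrane proteins had 7 of 37 (18.9%), with SLC44A2, a choline transporter (55 of 65), TMEM213, TMEM74 and SLC25A35 having the most U+ reads. Cell cycle, replication and repair had 3 of 16 (18.8%), CCND3 (37 of 43), CDK1 (35 of 39) and CDC42EP4, which its symbol alone placed there. A group of provisional symbols, which mixed open reading frame symbols with FAM, CCDC, KIAA and clone symbols, had 13 of 54 (24.1%). It was led by FAM65A, C12orf44, now ATG101, a subunit of the ULK1 complex (127 of 157), CCDC142 and C4orf32.

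Cytosolic ribosomal proteins had 1 of 6, RPL39L, respiratory chain genes had 1 of 7, NDUFB7 (23 of 24), and chaperones had 1 of 6, HSPG2, which is perlecan, a matrix proteoglycan and no chaperone. By symbol, none of 7 windows of RNA polymerases and general transcription reached 80%. Nor did any of 6 placed under translation factors and aminoacyl-tRNA synthetases, or any of 3 under mitochondrial ribosomal proteins. The upper bounds for these shares were 35.4%, 39.0% and 56.2%, all above the 27.1% of all windows. The symbol patterns missed genes of such function that did reach 80%. Examples are TARSL2, now TARS3, a threonyl-tRNA synthetase (153 of 189), GUF1, a GTPase of mitochondrial translation (57 of 69), and DR1 (20 of 20).

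**Figure D5:**
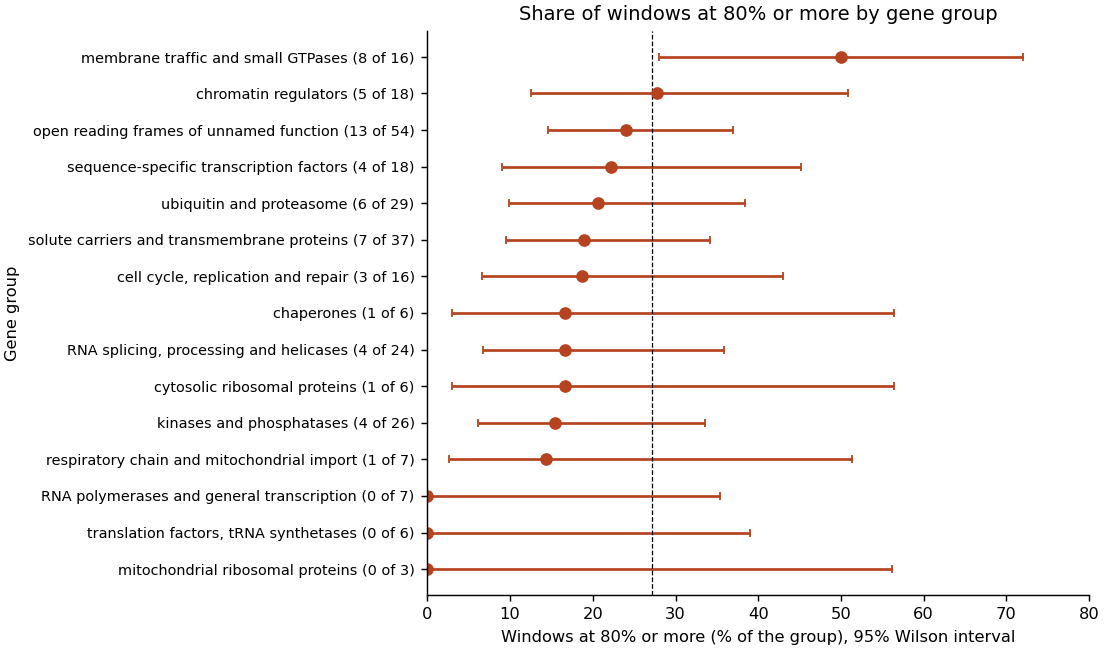
Share of windows at 80% or more (percent, with 95% Wilson intervals) in 15 groups of gene symbols, with selected and all windows of the group in brackets and a dashed line at the 27.1% of all 874 windows. Membrane traffic and small GTPases, which by symbol include the effector CDC42EP4, lie highest at 50% with an interval that starts just above the dashed line. The intervals of the other 14 groups hold the line.

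Sorted by what the genes are known to do, 126 of the selected genes were placed in 11 roles, by a list that was made after the members were known, to describe them. Windows below 80% were not sorted in this way, so the counts per role cannot be read against the 27.1%. Among secreted signals, KITLG, the ligand of the KIT receptor, had 72 of 78 reads uridylated (92.3%, 84.2 to 96.4%), WNT9A had 31 of 38 (81.6%) and NPTX2, a neuronal pentraxin, had 25 of 25. GRN, progranulin, had 21 of 26 and GDF11, a TGF-β family ligand, had 16 of 20. Only KITLG and NPTX2 of these 7 had a lower bound at 80% or more.

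Receptors and channels included KLB and FGFR1, the receptor kinase that KLB pairs with, at 68 of 79 (86.1%, 76.8 to 92.0%). The interval of FGFR1 lay below that of KLB. LGR5, the R-spondin receptor of intestinal stem cells, had 79 of 96 (82.3%), NGFR, the low-affinity neurotrophin receptor, had 22 of 22, HCN2, a pacemaker channel, had 80 of 100 and ITPR2, an IP3-gated calcium channel, had 83 of 100. Of 10 windows in this role, 4 had a lower bound of at least 80%.

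Genes of the extracellular matrix, adhesion and sugar chains counted 12, all within 150 nt of a start. Beside ADAMTS1, CHST8 and NINJ1 they held POFUT1, which adds fucose to Notch receptors, with 174 of 203 (85.7%, 80.2 to 89.9%), HSPG2 with 85 of 104 (81.7%), COL18A1, the source of endostatin, with 39 of 44 and P4HA1, a collagen prolyl hydroxylase, with 27 of 29. Signalling adaptors included PELI2 with 73 of 78 (93.6%, 85.9 to 97.2%), AXIN1, the scaffold of β-catenin destruction, with 75 of 90 (83.3%), AMER1, which acts in the same pathway, with 23 of 28, and MAVS, the adaptor of RIG-I signalling, with 37 of 46.

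Genes of mitochondria and autophagy had a median fraction of 90% over 11 windows, with ULK3, C12orf44 and PDHX among them. PINK1, the kinase that marks damaged mitochondria, had 29 of 31 and WIPI1, an autophagosome protein, had 40 of 50. Intervals in this role were wide, and 3 of the 11 windows had a lower bound of at least 80%. Metabolic genes counted 18 windows. Beside SGPL1, ISYNA1 and CYP7B1 they held ITPKA, an inositol trisphosphate kinase, with 116 of 133 (87.2%, 80.5 to 91.9%), NT5M, a mitochondrial nucleotidase, with 68 of 78, and PKM, pyruvate kinase, with 17 of 20.

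RNA metabolism held 12 windows. NUP98, a nuclear pore protein, had 87 of 107 (81.3%), RRP1B, a nucleolar protein, had 77 of 92 (83.7%), PSTK, the kinase of selenocysteine tRNA synthesis, had 67 of 72 (93.1%, 84.8 to 97.0%) and DBR1, the lariat debranching enzyme, had 67 of 83 (80.7%). Chromatin and transcription held 15, among them CITED2, a transcriptional co-regulator, with 98 of 119 (82.4%), SUV39H2, a histone H3 methyltransferase, with 24 of 24 and SMARCD2, a subunit of the SWI/SNF remodeller, with 27 of 28. Ubiquitin and related modifiers held 10, all within 150 nt of a start, with MIB2, a ligase of Notch ligands, at 41 of 49 and FBXO9 at 20 of 21. Genome upkeep and cell division held 8, led by CLSPN and LIG3, and membrane traffic and cytoskeleton held 13, with ERGIC3, a protein of the early secretory pathway, at 98 of 105 (93.3%, 86.9 to 96.7%) and SURF4, a cargo receptor, at 32 of 33. Across the 11 roles the median fractions ran from 81.6% for secreted signals to 90% for mitochondria and autophagy. This range was within the width of the intervals of most single windows. The fraction itself chose every window, so the order of the roles is a description only.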

How the data were processed

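CLIP-seq reads of 3 libraries had been mapped to GRCh37/hg19, with Segemehl by the study's methods, and again after 3′ T runs were trimmed from unmapped reads. The submitters' processing notes name Subread, with no role given. The authors counted, in windows of 50 nt, the uniquely mapped reads and those with an untemplated 3′ run of at least 4 T. They deposited raw counts summed over the libraries. By the methods, windows had at least 20 reads and a posterior of at least 0.95 for a frequency over 0.25, but 14 of the 874 windows, 1 of them a member, miss 1 or both on the pooled counts. Counts per library were not used here, so depth is the pooled count of each window.

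The U+ fraction was U+ reads over unique reads. Intervals are Wilson intervals at 95% (scipy 1.17.1). No tests were run between windows. The members and lists were chosen with earlier results of these data known. Named windows were the 10 with the most U+ reads, the 10 with the highest lower bound, full windows with at least 50 reads, the 2 shallowest, 3 on each side of the threshold, up to 4 per gene group and 3 per position. Other windows were named after their values were seen, and 1 window of the rule is not reported here.

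Positions are from GENCODE release 44 on GRCh37. The listed transcript served for 215 members, the canonical transcript for 20 and a coding gene within 60 nt for 2. Starts were read as 1-based and can be off by 1 nt. Acceptors were taken over all transcripts of the gene. Folding used RNAfold 2.7.2 at 37 °C, and copies (45 nt with at most 2 differences) used blastn 2.17.0. Intervals, position classes and the member rule were tested on simulated data.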

Additional observations from a re-analysis of the deposited data

How the results depend on the processing

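No paired analysis was possible because the deposited counts are sums over the libraries, and for the same reason no library could be left out. The authors' frequency estimate was not run, since the counts used here do not hold it. The number of almost fully uridylated windows depended most on the threshold and on depth. It was 237 as reported, 358 at a fraction of 0.75, 144 at 0.85 and 80 at 0.90. It was 88 with at least 50 unique reads, 46 with at least 100 and 64 with the lower Wilson bound at 0.80, and 270 when genes with several mRNA windows were kept. The median of 41 unique reads became 29.5 at a fraction of 0.90 and 64.5 with the Wilson bound. The share within 150 nt of the start, 83.5%, was 71.3% at a fraction of 0.90, 90.3% from the nearest start of any transcript, 75.5% within 100 nt and 87.8% within 300 nt. At a fraction of 0.90 it stood against 83.0% in the windows below that fraction. The median folding energy was -48.40 kcal/mol with 25 nt added on each side, against -44.80 kcal/mol for the other windows, because the sequence was longer. The share with an encoded T run was 1.27% for at least 5 T, against 3.77% in the other windows. The pooled fraction was 87.0% without PTMS. The other alternatives, of which those for GC, folding and T runs by depth or near starts were chosen after seeing the data, stayed within the counting interval of the reported value. In these the differences in GC, folding energy and T runs from the other windows kept their direction, but the share near the start took the opposite order to that of all windows with at least 50 unique reads (83.0% against 83.1%) and with at least 100 (80.4% against 84.5%). The depth limits single windows, since 173 of the 237 intervals held 80%.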
